A study of Rattus norvegicus with 30 samples.

Results

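The genes described here encode surface proteins of white blood cells, most of them used to leave the vessel and settle in injured tissue. The gene list named Itgal, Itgam, Itgax, Itgb2, Itga4, Ptprc and Selplg, and a gene was taken where the deposited count table of the rat plantaris tendon carried its name. Of these 7 genes, 6 were found among the 13124 genes of the table, and all 6 were among the 12558 genes kept by a filter on low values. Itgam was not analysed here.

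Tendons of 3-month-old male Sprague Dawley rats were cut through and repaired at once in both hind limbs, and RNA from the right plantaris tendon was sequenced 7 or 21 days (7D, 21D) later. GSK2894631A was given by gavage 2 times a day after surgery, at a dose of 0, 2 or 6 mg/kg. It is an inhibitor of hematopoietic prostaglandin D synthase, the enzyme that makes prostaglandin D2 in immune cells. The repaired groups were 7D 0 mg/kg (n = 5), 7D 2 mg/kg (n = 4), 7D 6 mg/kg (n = 3), and 21D 0 mg/kg, 21D 2 mg/kg and 21D 6 mg/kg (n = 5 each), where 0 mg/kg is vehicle alone. Per the study's methods, samples of the control, 7D 2 mg/kg and 7D 6 mg/kg groups were removed for read quality, and those removals would leave more 7D 6 mg/kg tendons than the 3 analysed here. The 3 control tendons came from rats with neither surgery nor the compound. Whether these rats were gavaged with vehicle is not given in the sources used here, so a part of gavage in a difference from control cannot be told apart from that of surgery. Each library held the RNA of all cells in the excised tendon, whose dissection aimed to exclude muscle and bone. The total count of a library lay between 12405741 and 49909374.

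White blood cells first roll on the vessel wall, held by selectins that bind a sugar-coated ligand, P-selectin glycoprotein ligand 1, which Selplg encodes. Integrins, each a pair of an alpha and a beta chain, then switch to a tight-binding form and arrest the cell. Itgb2 encodes the beta chain shared by the leukocyte integrins, Itgal the alpha chain of LFA-1, which binds ICAM proteins on the vessel and is abundant on lymphocytes, and Itgax the alpha chain CD11c, carried by dendritic cells and by some macrophages. Itga4 encodes the alpha chain that pairs with the products of Itgb1 or Itgb7 and binds VCAM1 and fibronectin, and it is also made by cells other than leukocytes. Ptprc encodes CD45, a phosphatase on nearly all nucleated blood cells that acts on Src family kinases.

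In the rn6 coordinates of the table, Itgal and Itgax both lay on chromosome 1, Itga4 on chromosome 3, Selplg on chromosome 12, Ptprc on chromosome 13 and Itgb2 on chromosome 20. Itgal and Itgax belong to a cluster of paralogs with Itgam and Itgad, and RefSeq lists Itgax as a synonym of Itgad. The count table holds Itgax and Itgad as separate genes. How well reads were divided between these paralogs was not examined and is uncertain. Promoter windows of RefSeq (build GRCr8), from 250 bases before to 50 after the start, were at hand for 3 of the 6 genes. Ptprc is shown because every ratio below is taken against it, and 186 bases of its window lay upstream of the annotated gene, at chr13:52259811-52259996 on the minus strand. The letters GAGGAA, in capitals below, match the core of sites for ETS factors such as PU.1, and were found, on either strand, in 27.6% of all 33469 windows, so that a match is a description of the letters alone.

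Ptprc: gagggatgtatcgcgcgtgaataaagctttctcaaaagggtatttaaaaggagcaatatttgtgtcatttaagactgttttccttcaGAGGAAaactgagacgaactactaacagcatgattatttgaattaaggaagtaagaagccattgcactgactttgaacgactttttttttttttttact

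The windows of Itgax and Itga4 lay inside the annotated gene spans and are not printed. The Itgax window held neither GAGGAA nor TGTGGT, the core letters of RUNX sites, which were found in 17.3% of all windows. The 2 motifs were searched separately on both strands. The Itga4 window held TGTGGT on the opposite strand.

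The first question was how much the members differed between repaired and control tendons. In every repaired group, 5 of the 6 genes rose against control: Itgax, Itgb2, Itgal, Ptprc and Selplg. Itga4 did not pass the test in any group. Among all 12558 genes, those called higher made up 35.8% in the 7D 0 mg/kg group, 35.8% in the 7D 2 mg/kg group, 34.1% in the 7D 6 mg/kg group, 32.2% in the 21D 0 mg/kg group, 33.8% in the 21D 2 mg/kg group and 30.8% in the 21D 6 mg/kg group. The median log2 fold change of the members was 2.97 in the 7D 0 mg/kg group and 2.68 in the 21D 0 mg/kg group, against 0.05 and 0.03 over all genes tested. Tests were edgeR quasi-likelihood F tests with Benjamini-Hochberg adjustment over all 12558 genes, and levels are in CPM, mapped read counts scaled to a common library total with TMM factors. In bulk tendon, more leukocytes and more RNA per leukocyte cannot be told apart. The 6 comparisons share the same 3 control tendons.

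Itgax was at 0.817, 2.00 and 5.28 CPM in the 3 control tendons. It was at 25.7, 50.7, 65.1, 74.2 and 122 CPM in the 7D 0 mg/kg group and, after 21 days on the same dose, at 18.6, 27.9, 41.2, 119 and 303 CPM. All 27 repaired tendons lay above the highest control, while the repaired tendons themselves covered a wide range, with one 21D 0 mg/kg tendon far above the rest. The log2 fold change against control was 4.60 ± 1.09 (SE) in the 7D 0 mg/kg group (24.2-fold, adjusted p = 5.81e-04) and 5.19 ± 1.12 (SE) in the 21D 0 mg/kg group (36.5-fold, adjusted p = 2.82e-04). The 95% interval at 7 days ran from 2.35 to 6.84, and the interval at 21 days from 2.89 to 7.49, so the size of the rise was known only loosely. Single tendons also moved the estimated size of the rise. Without control replicate 2 the Itgax value was 5.42 in the 7D 0 mg/kg group and 6.01 in the 21D 0 mg/kg group, and without replicate 2 of the latter group it was 4.21. With the compound, Itgax had log2 fold changes of 4.91 in the 7D 2 mg/kg group, 4.42 in the 7D 6 mg/kg group, 4.94 in the 21D 2 mg/kg group and 3.96 in the 21D 6 mg/kg group. Without control replicate 2 these were 5.74, 5.26, 5.75 and 4.79 in the same order. The 7D 6 mg/kg value was 3.71 without replicate 1 of that group, and the 21D 6 mg/kg value was 3.14 without its replicate 5. All of these fits still passed the test.

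Itgb2, the common beta chain, was at 5.64, 26.7 and 44.02 CPM in control tendons. In 7D 0 mg/kg tendons it was at 148, 227, 267, 440.5 and 498 CPM, and in the 21D 0 mg/kg group at 66.7, 102, 172, 491 and 1013 CPM. Again no repaired tendon overlapped the controls, and the same 21D 0 mg/kg tendon as for Itgax, replicate 2, was the highest. Against control, Itgb2 had a log2 fold change of 3.63 ± 0.97 (SE) at 7 days (12.4-fold, adjusted p = 0.00176) and 3.85 ± 0.98 (SE) at 21 days (14.4-fold, adjusted p = 0.00138). Without replicate 2 of the 21D 0 mg/kg group the latter was 3.02, and it still passed. In 7D 6 mg/kg the log2 fold change of Itgb2 was 3.32 ± 0.99 (SE), with 3.92 without control replicate 2 and 2.70 without replicate 1 of the treated group, both past the test. In 21D 6 mg/kg the log2 fold change was 2.70 ± 0.92 (SE) (adjusted p = 0.0128), and without control replicate 4 it was 2.18 and no longer passed the test (adjusted p = 0.0698). Without replicate 5 of the treated group it was 2.02 (adjusted p = 0.0468).

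Itgal was at 2.53, 9.10 and 11.1 CPM in control tendons. It reached 33.96, 38.96, 70.7, 84.7 and 93.6 CPM in the 7D 0 mg/kg group, and 15.03, 22.5, 32.03, 39.9 and 51.1 CPM in the 21D 0 mg/kg group. The controls again lay below every repaired tendon, although the lowest of the 21D 0 mg/kg tendons came close to the highest control. Its log2 fold change was 3.06 ± 0.50 (SE) at 7 days (8.34-fold, adjusted p = 7.61e-06) and 2.06 ± 0.48 (SE) at 21 days (4.16-fold, adjusted p = 5.86e-04).

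Ptprc, the general leukocyte marker, was at 9.72, 27.2 and 46.1 CPM in control, 117, 135, 159, 222 and 236 CPM in the 7D 0 mg/kg group and 59.4, 85.7, 126, 184 and 459 CPM in the 21D 0 mg/kg group. Ptprc had a log2 fold change of 2.64 ± 0.62 (SE) at 7 days (6.25-fold, adjusted p = 5.31e-04) and 2.72 ± 0.62 (SE) at 21 days (6.57-fold, adjusted p = 5.25e-04). Without replicate 2 of the 21D 0 mg/kg group the Ptprc value at 21 days was 2.03, and it still passed. Here too the groups did not overlap. Selplg, the selectin ligand, was at 1.96, 7.58 and 10.6 CPM in control, 32.5, 42.4, 49.6, 53.2 and 74.3 CPM in the 7D 0 mg/kg group and 13.2, 29.4, 36.6, 38.7 and 95.7 CPM in the 21D 0 mg/kg group. Its log2 fold change was 2.88 ± 0.61 (SE) at 7 days (7.36-fold, adjusted p = 1.93e-04) and 2.64 ± 0.61 (SE) at 21 days (6.24-fold, adjusted p = 5.36e-04). All 27 repaired tendons lay above the highest control for both genes.

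Itga4 stood apart from the other members. It was at 13.5, 18.2 and 30.1 CPM in control tendons, 12.1, 14.8, 16.7, 20.8 and 24.9 CPM in the 7D 0 mg/kg group and 6.86, 13.01, 13.7, 23.7 and 51.1 CPM in the 21D 0 mg/kg group. The groups overlapped throughout, and 2 of 27 repaired tendons exceeded the highest control. The log2 fold change against control was -0.21 ± 0.49 (SE) in the 7D 0 mg/kg group (adjusted p = 0.718, 95% interval -1.21 to 0.80) and 0.07 ± 0.49 (SE) in the 21D 0 mg/kg group (adjusted p = 0.906, 95% interval -0.94 to 1.08). These intervals leave room for an increase or decrease of up to about 1 on the log2 scale, and the sign of the Itga4 value in the 7D 0 mg/kg group changed when library size alone was used for scaling (0.36). In the 21D 0 mg/kg group the Itga4 value was -0.53 without replicate 2 of that group and -0.21 without control replicate 4, neither past the test.

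**Figure D1:**
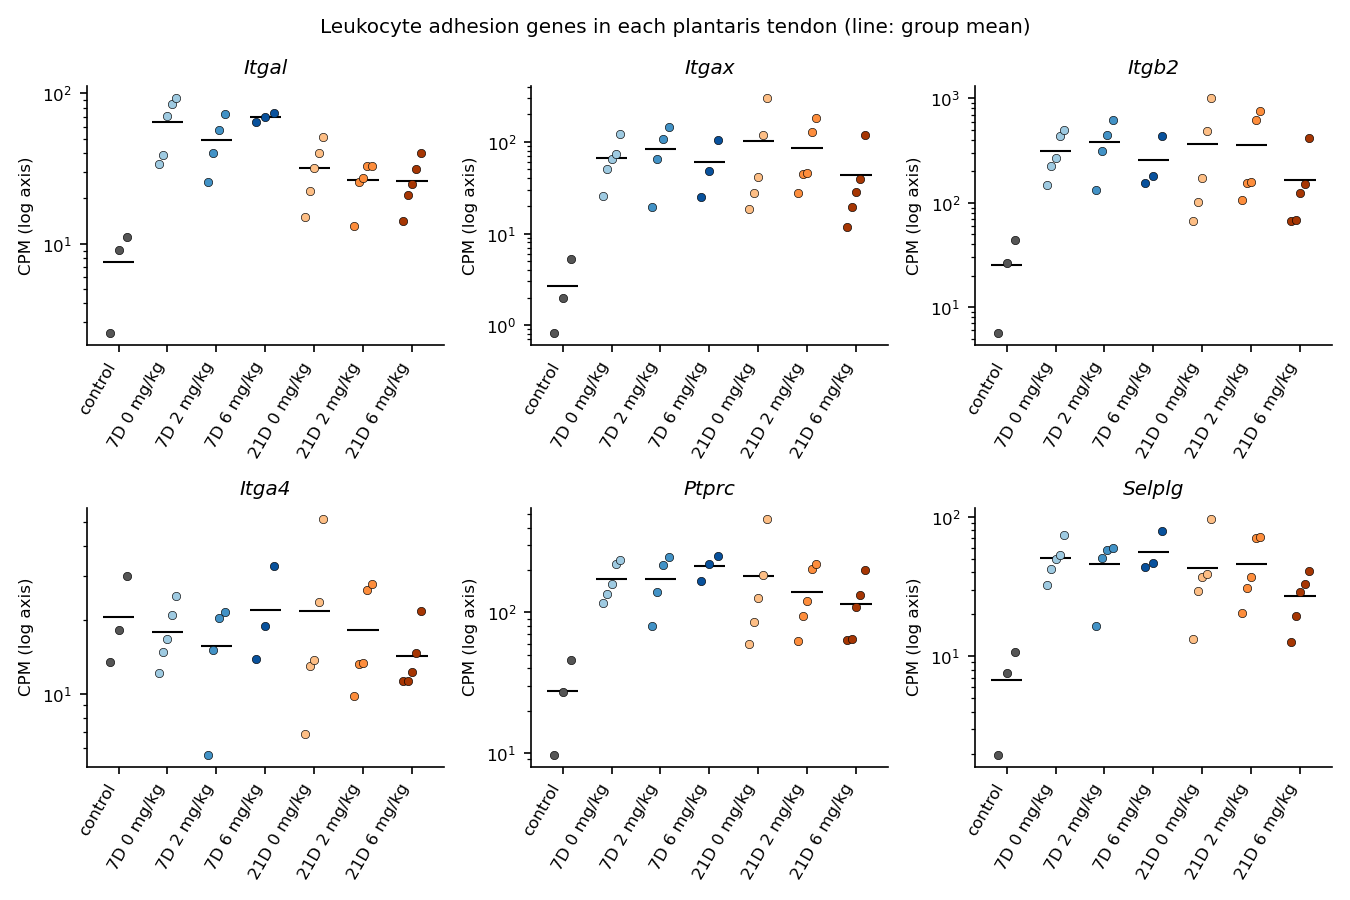
CPM of each member on a log axis in every tendon, by group, with the group mean as a line. Control tendons lie below all repaired tendons in the panels of Itgal, Itgax, Itgb2, Ptprc and Selplg, and among them in the panel of Itga4, where 2 of 27 repaired tendons exceed the highest control.

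Skeletal muscle RNA and leukocyte marker genes moved together with these differences. The 25 skeletal muscle markers in the table, led by Acta1, held 21.1% to 30.3% of the counts of control tendons, 0.242% to 1.45% of those of the 7D 0 mg/kg group and 0.101% to 8.76% of those of the 21D 0 mg/kg group, and all 25 were lower in the 7D 0 mg/kg group, where 35.6% of all genes were called lower. When these muscle markers were left out before scaling, the number of members called higher against control was again 5 in each of the 6 groups. It was also 5 with library size alone. Both settings change the scaling only, so they cannot show the part of muscle RNA in the member values. Of the 9 macrophage markers, 7 were higher in the 7D 0 mg/kg group and 5 in the 21D 0 mg/kg group. Their summed level, led by Lyz2, was 398, 1334 and 1815 CPM in the controls and 2220 to 5202 CPM in the 7D 0 mg/kg group. In the 21D 0 mg/kg group it was 1462 to 7820 CPM, which overlapped the controls. Of the 7 neutrophil markers tested, led by S100a9, 5 were higher in the 7D 0 mg/kg group and 0 in the 21D 0 mg/kg group, where also 0 had an unadjusted p under 0.05 by edgeR. All 7 T cell markers tested were higher in the 7D 0 mg/kg group, and 6 in the 21D 0 mg/kg group. Of the B cell, NK cell and dendritic cell markers tested, 3 of 3, 3 of 3 and 4 of 5 were higher in the 7D 0 mg/kg group, against 1 of 4 mast cell markers. Endothelial markers were higher for 3 of 5 in the 7D 0 mg/kg group and for 0 of 5 in the 21D 0 mg/kg group, where also 0 had an unadjusted p under 0.05 by edgeR. All 6 tendon fibroblast markers, led by Col1a1, were detected in control and 0 mg/kg tendons, and in the 7D 0 mg/kg group 1 of them was higher and 3 were lower, beside 35.8% and 35.6% of all genes. The part of each cell type in the member values was not tested.

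**Figure D2:**
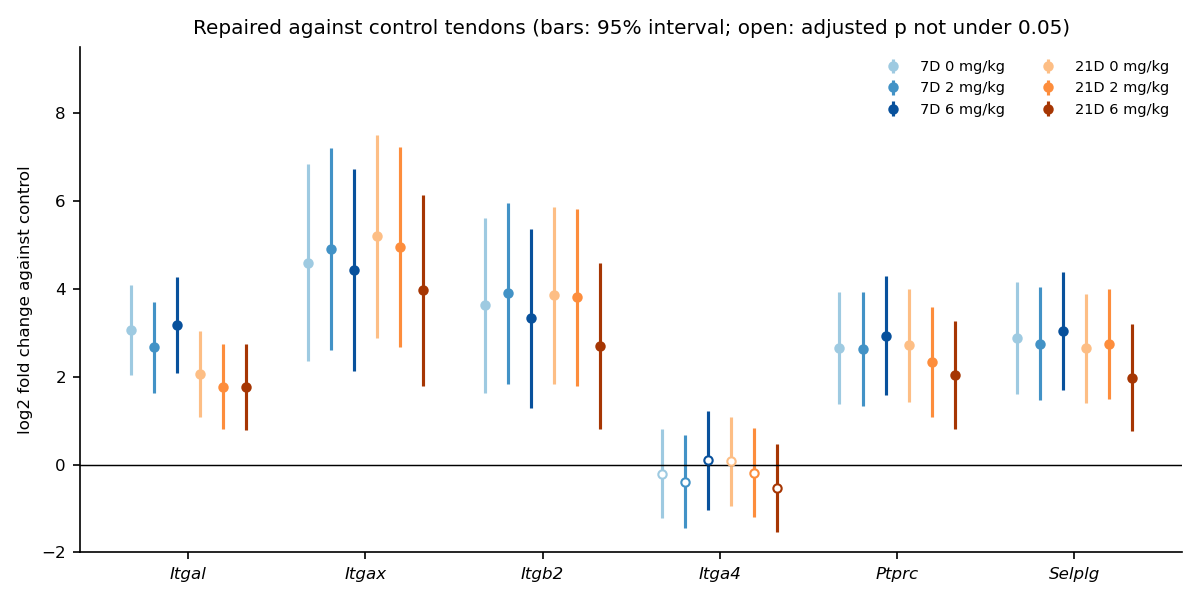
The log2 fold change of each member against control in the 6 repaired groups, with 95% intervals from the edgeR fit and open points where the adjusted p was not under 0.05. Itgal, Itgax, Itgb2, Ptprc and Selplg are called in every group, and the 6 intervals of Itga4 all span 0.

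The next comparison set each member against Ptprc within the same tendon. The ratio of the 2 counts does not depend on library scaling, and a change in it shows that a gene moved more or less than the general leukocyte gene. Differences were tested over samples with exact two-sided permutation tests, adjusted over 10 tests, and the smallest p that 27 repaired and 3 control tendons allow is 0.000246. The log2 ratio of Itgax to Ptprc was -3.76, -3.57 and -3.13 in the controls and lay between -2.71 and -0.26 in the repaired tendons, with no overlap. Its mean rose by 2.09, or 4.24-fold (adjusted p = 0.00123). For Itgb2 the ratio was -0.79, -0.07 and -0.03 in the controls and -0.30 to 1.78 in the repaired tendons, which overlapped. The mean rose by 0.99 on the log2 scale, or 1.99-fold (adjusted p = 0.0105), but by 0.75 without control replicate 4, where the test was no longer passed (adjusted p = 0.128). Itga4 fell relative to Ptprc. Its log2 ratio was -0.62, -0.58 and 0.47 in the controls and -3.83 to -2.48 in the repaired tendons, a difference of -2.89, or 7.43-fold lower (adjusted p = 0.00123). Against control Ptprc itself had log2 fold changes of 2.03 to 2.94 over the repaired groups, and Itga4 was called in none of them. A gene with no change of its own would also fall relative to Ptprc, by as much as Ptprc rose. No share over all genes is given for these ratios. Pooled over both times, the ratios of Itgal and Selplg moved little beside their spread. The difference was -0.09 for Itgal (adjusted p = 0.954), whose ratio had an SD of 0.66 over the 27 repaired tendons. For Selplg it was 0.21 (adjusted p = 0.413), with an SD of 0.32. The mean log2 ratio of Itgal was -1.86 in control, -1.62 in 7D and -2.21 in 21D tendons. Its pooled difference thus averages times that lay on either side of control.

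**Figure D3:**
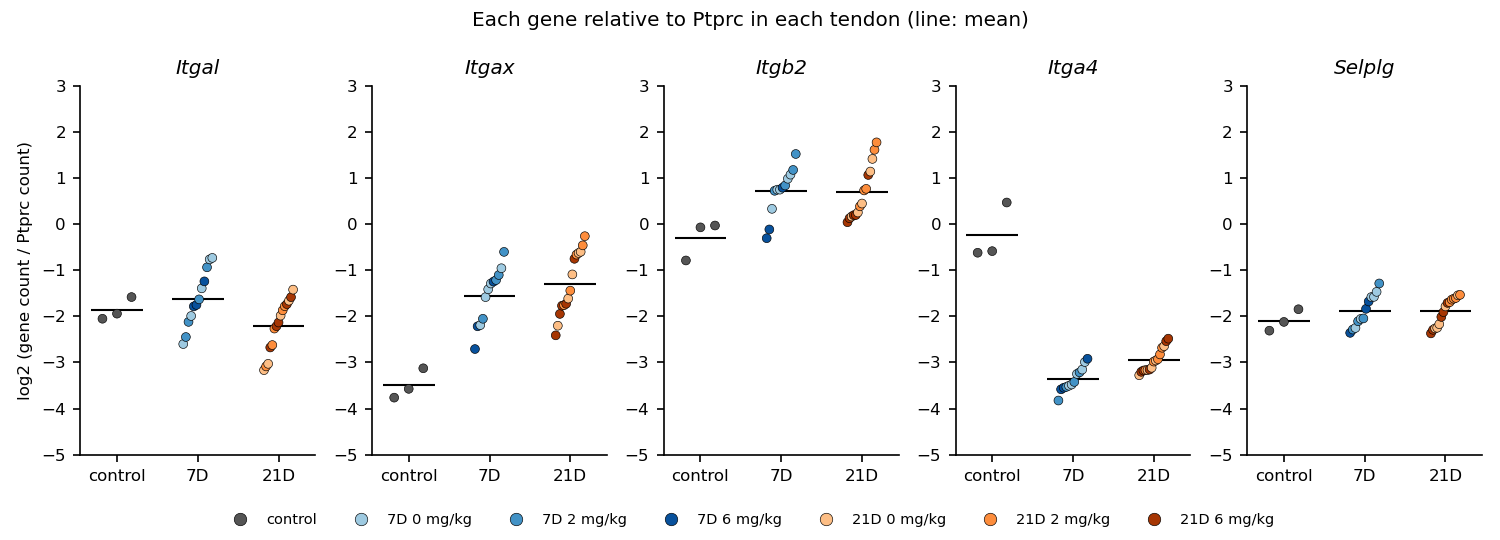
The log2 ratio of each gene's count to the Ptprc count in every control, 7D and 21D tendon, coloured by group, with the mean as a line. Itgax and Itga4 separate control from repaired tendons in opposite directions, with differences of 2.09 and -2.89, whereas Itgal and Selplg do not separate them.

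The second question was whether the members differed between 21 and 7 days after repair. At 6 mg/kg, 1 of the 6 members was lower at 21 days, Itgal, where 4.55% of all genes were called lower and 8.54% higher. Of the genes called at this dose 65.2% were higher, against 50.9% with library size alone and 49.5% with only the compared groups in the fit. At 0 mg/kg, 0 of 6 passed in either direction (2.88% of all genes higher and 2.47% lower), with 1 member at an unadjusted p under 0.05 and 1 called by DESeq2. At 2 mg/kg, 0 of 6 passed as well (7.09% higher and 5.98% lower), with 1 at an unadjusted p under 0.05 and 0 called by DESeq2. In each of these cases the 1 gene was Itgal.

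Itgal was at 64.4, 70.2 and 74.5 CPM in the 7D 6 mg/kg group and at 14.1, 21.1, 24.8, 31.3 and 39.9 CPM in the 21D 6 mg/kg group. The groups did not overlap. At 21 against 7 days, Itgal had a log2 fold change of -1.41 ± 0.42 (SE), or 2.66-fold lower (adjusted p = 0.0268). This call depended on single tendons. Of the 8 fits that left out 1 tendon, 6 no longer passed, namely those without replicate 1, 4 or 5 of the 7D 6 mg/kg group or without replicate 1, 2 or 4 of the 21D 6 mg/kg group, with log2 fold changes of -1.46 to -1.25 and adjusted p of up to 0.0862. At 2 mg/kg Itgal was at 25.9, 39.97, 57.03 and 72.9 CPM at 7 days and 13.1, 25.9, 27.3, 32.8 and 32.8 CPM at 21 days, which overlapped. The log2 fold change at this dose was -0.89 ± 0.39 (SE) (adjusted p = 0.137), and at 0 mg/kg it was -1.004 ± 0.37 (SE) (adjusted p = 0.103). Without replicate 2 of the 21D 0 mg/kg group, the 0 mg/kg value was -1.23 and passed (adjusted p = 0.0433). Whether the Itgal difference varied with dose was tested by an interaction term, which was not significant (adjusted p = 0.961).

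The other members gave no call between the times. Selplg was at 43.2, 46.4 and 78.5 CPM in the 7D 6 mg/kg group and 12.6, 19.4, 29.05, 32.9 and 40.8 CPM in the 21D 6 mg/kg group. Those groups did not overlap either, yet the difference of -1.06 ± 0.52 (SE) did not pass (adjusted p = 0.190). For Itgax the log2 fold change of 21D against 7D was 0.59 ± 0.73 (SE) on vehicle, 0.03 ± 0.77 (SE) with the 2 mg/kg dose and -0.46 ± 0.83 (SE) with the 6 mg/kg dose. The 95% interval of Itgax at 0 mg/kg was -0.90 to 2.09, so that a change of any size between these bounds could not be told from none. For Ptprc it was -0.91 to 1.05, and for Itga4 -0.60 to 1.15. At this dose the sign of several values turned without replicate 2 of the 21D 0 mg/kg group, where the log2 fold change of Itgax was -0.39, that of Itgb2 -0.60, that of Itga4 -0.32 and that of Ptprc -0.61. The Ptprc value also turned without replicate 2 (-0.0071) or replicate 4 (-0.042) of the 7D 0 mg/kg group. Leukocyte markers also differed between the times. Of the 7 T cell markers 3, 3 and 5 were lower at 21 days at 0, 2 and 6 mg/kg, and of the 7 neutrophil markers 3, 3 and 4, while of the 9 macrophage markers 0, 1 and 2 were lower. At 0 mg/kg, 2 macrophage markers, Cd163 and Mrc1, had an unadjusted p under 0.05. Skeletal muscle RNA moved too, at 0.0417% to 0.0648% of the counts in the 7D 6 mg/kg group and 0.390% to 10.5% in the 21D 6 mg/kg group, and at 0.0368% to 0.0398% and 1.40% to 3.59% at 7 and 21 days with 2 mg/kg. All 25 muscle markers were higher at 21 days at each of these doses, and 2 of 25 at 0 mg/kg. When the muscle markers were left out before scaling, which changes the scaling only, the Itgal difference at 6 mg/kg was -1.41 and still passed. The part of leukocyte markers or of muscle RNA in the Itgal values was not tested.

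**Figure D4:**
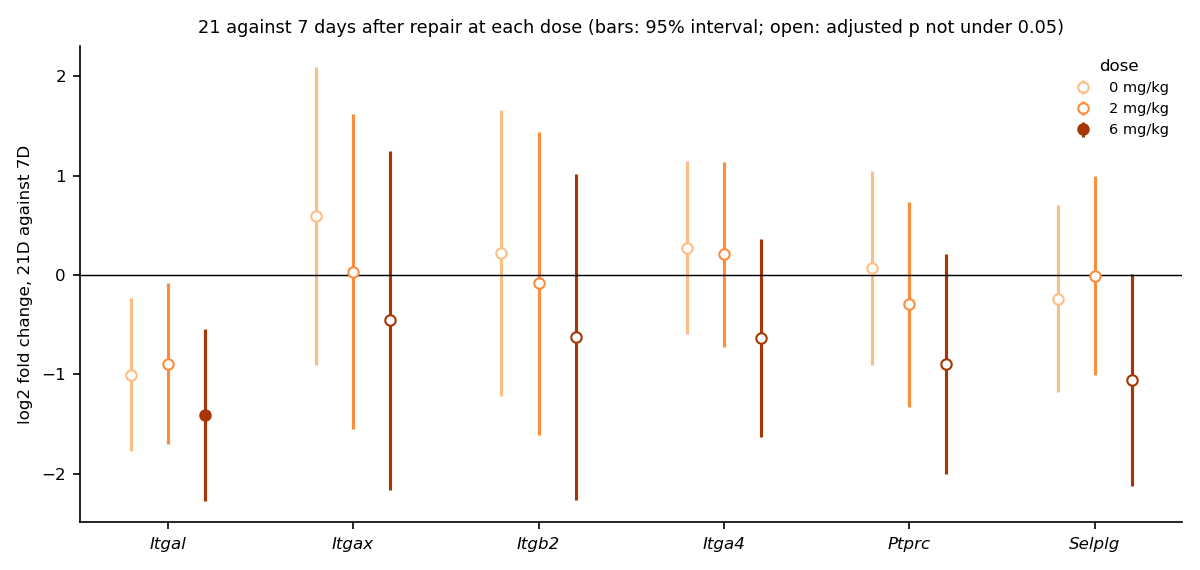
The log2 fold change of each member at 21 against 7 days at 0, 2 and 6 mg/kg, with 95% intervals and open points where the adjusted p was not under 0.05. The 3 Itgal values lie between -1.41 and -0.89 and 1 of them is called, and the intervals of the other members span 0.

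Relative to Ptprc, 2 of the 5 genes differed between the times when labels were exchanged within each dose. No share over all genes is given for these ratios, so this count cannot be set beside one. Between the times Ptprc itself had log2 fold changes of 0.07, -0.30 and -0.90 at 0, 2 and 6 mg/kg, none of them called. A gene with no change of its own would move relative to Ptprc by the opposite of these values. Those of Itga4 itself were 0.28, 0.21 and -0.63, also not called. The log2 ratio of Itgal was -1.62 ± 0.62 (SD, n = 12) at 7 days and -2.21 ± 0.58 (SD, n = 15) at 21 days. Averaged over doses the ratio fell by 0.59 on the log2 scale (exact permutation, adjusted p = 0.0326), with -0.76, -0.54 and -0.48 for the 0, 2 and 6 mg/kg doses. The tendons of the 2 times overlapped widely, and 9 of the 27 fits that left out 1 tendon no longer passed, with differences of -0.58 to -0.50 and adjusted p of up to 0.0736. The tendons concerned were replicates 3, 4 and 5 of the 7D 0 mg/kg group, 4 and 5 of the 7D 2 mg/kg group, 5 of the 7D 6 mg/kg group, 2 and 5 of the 21D 0 mg/kg group and 4 of the 21D 2 mg/kg group. With the geometric mean of Ptprc and Itgb2 as denominator the Itgal difference was -0.61 and did not pass (adjusted p = 0.101). Itga4 moved the other way. Its log2 ratio was -3.37 ± 0.27 (SD, n = 12) at 7 days and -2.95 ± 0.26 (SD, n = 15) at 21 days, and the mean difference of 0.42 passed the exact permutation test (adjusted p = 0.0036), with 0.24, 0.58 and 0.44 at 0, 2 and 6 mg/kg. For Itgax the difference was 0.31 (adjusted p = 0.336), for Itgb2 0.03 (adjusted p = 0.954), and for Selplg the average was under 0.001 in size, made up of -0.21, 0.31 and -0.10 at 0, 2 and 6 mg/kg.

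The last question was whether GSK2894631A changed the members. At 7 days 0 of 6 differed across the 3 doses, where 2.05% of all genes did, and at 21 days 0 of 6, where 0% of all genes did. No member had an unadjusted p under 0.05 at either time, and DESeq2 called 0 at both. Over all genes at 21 days, 1366 had an unadjusted p under 0.05, and DESeq2 called 138. The smallest adjusted p of a member was 0.847 at 7 days (Itgal) and 0.629 at 21 days (Selplg). No member was called for a dose effect that differed between the times, with adjusted p from 0.897 to 0.965, where 0.39% of all genes were called, and 0 members had an unadjusted p under 0.05 or were called by DESeq2.

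Itgax was at 19.3, 64.96, 107 and 144 CPM in the 7D 2 mg/kg group and 25.4, 47.7 and 106 CPM in the 7D 6 mg/kg group, which overlapped the 0 mg/kg tendons. At 21 days it was at 27.7, 44.1, 45.9, 128 and 183 CPM with 2 mg/kg and 11.9, 19.7, 28.3, 38.99 and 119 CPM with 6 mg/kg. The 21D 6 mg/kg group had the lowest mean of the repaired groups, 43.5 ± 43.2 CPM (SD, n = 5), against 102 ± 119 CPM (SD, n = 5) in the 21D 0 mg/kg group. The difference between these groups was -1.23 ± 0.74 (SE) on the log2 scale (95% interval -2.75 to 0.29, adjusted p = 0.809), and the groups overlapped. Itgb2 was at 133, 316, 444 and 627 CPM in the 7D 2 mg/kg group and 153, 179.5 and 435 CPM in the 7D 6 mg/kg group. At 21 days it was at 107, 156, 157, 618 and 752 CPM with 2 mg/kg and 67.1, 69.2, 125, 153 and 419 CPM with 6 mg/kg. As for Itgax, 1 tendon in the 21D 6 mg/kg group, replicate 5, lay well above the other 4. The 21D 6 against 0 mg/kg difference of Itgb2 was -1.15 ± 0.71 (SE) (95% interval -2.61 to 0.31, adjusted p = 0.809). Single tendons moved both of these differences. Without replicate 2 of the 21D 0 mg/kg group they were -0.25 for Itgax and -0.32 for Itgb2, and without replicate 5 of the 21D 6 mg/kg group -2.05 and -1.84, none of them past the test. Over all 6 members and the 3 pairs of doses, log2 differences ran from -0.57 to 0.51 on day 7 and from -1.23 to 0.11 on day 21. Since the intervals reached from -2.33 to 1.89 on day 7 and from -2.75 to 1.40 on day 21, these data bound the effect of the compound on the members only loosely.

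Ptprc was at 80.2, 139, 218 and 248 CPM in the 7D 2 mg/kg group, 166, 222 and 251 CPM in the 7D 6 mg/kg group, 63.1, 93.7, 119.9, 202 and 219 CPM in the 21D 2 mg/kg group and 63.2, 65.1, 109, 133 and 199.6 CPM in the 21D 6 mg/kg group. For Itga4 the values on day 7 were 5.65, 15.03, 20.3 and 21.4 CPM with 2 mg/kg and 13.8, 18.9 and 33.2 CPM with 6 mg/kg. On day 21 they were 9.84, 13.2, 13.4, 26.5 and 27.8 CPM with 2 mg/kg and 11.2, 11.3, 12.2, 14.7 and 21.7 CPM with 6 mg/kg. Selplg was at 16.4, 50.7, 57.2 and 60.1 CPM in the 7D 2 mg/kg group and 20.3, 30.9, 37.1, 69.7 and 71.6 CPM in the 21D 2 mg/kg group. In all of these the treated tendons overlapped the 0 mg/kg tendons of the same day.

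Ordered by mean level, Itgal ran from 7D 6 mg/kg through 7D 0 mg/kg, 7D 2 mg/kg, 21D 0 mg/kg, 21D 2 mg/kg and 21D 6 mg/kg to control, so that its 3 highest groups were the 7D groups. For Itgax the highest mean was in the 21D 0 mg/kg group, at 102 CPM, but without replicate 2 of that group its mean was 51.8 CPM and ranked 5 of 7. Itgb2 had its highest mean in the 7D 2 mg/kg group, while Ptprc, Selplg and Itga4 were highest in the 7D 6 mg/kg group. With the highest tendon of the leading group left out, Itgal and Ptprc kept their leading group, whereas the leading group fell to rank 4 for Itgb2 (replicate 2 left out, mean 297 CPM) and Selplg (replicate 1 left out, mean 44.8 CPM) and to rank 5 for Itga4 (replicate 1 left out, mean 16.4 CPM). Each group overlapped the next in these orders, except that control, last in order for 5 of the 6 genes, did not overlap the group above it. For Itga4, control ranked 3 of the 7 groups and overlapped both neighbours.

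Tendons of one group differed widely, and the same tendons were often the highest or the lowest for several members. In 21D 0 mg/kg, replicate 2 was the highest tendon for all 6 members, and Itgax spanned 16.3-fold and Itgb2 15.2-fold from the lowest to the highest tendon. In 7D 6 mg/kg replicate 1 was the highest for all 6, in the 7D 2 mg/kg group replicate 5 the lowest for all 6, and in the controls replicate 2 was the highest and replicate 4 the lowest for all 6. Itgal spanned at most 3.40-fold between the tendons of a repaired group. The summed macrophage markers of replicate 2 of the 21D 0 mg/kg group were 7820 CPM, the highest of all tendons, and those of control replicate 4 were 398 CPM, the lowest. Skeletal muscle markers ran the other way in these tendons. They were at 959 CPM in the former, the lowest of a group that reached 86197 CPM. In control replicate 4 they were at 505233 CPM, the highest of all tendons. The part of either cell type in the member values was not tested.

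Over the 30 tendons, the members formed closer and more distant pairs. Likeness was measured as the mean absolute difference in log2 CPM after each gene was centred on its own mean. The closest of the 15 pairs was Ptprc with Selplg at 0.28, followed by Itgax with Itgb2 at 0.36, and the most distant was Itgax with Itga4 at 1.11. Over the other genes of the table, those most like Itgal were Irf8, a transcription factor of myeloid and B cells, Clec4a3 and Ncr3, at 0.28 to 0.30. Nearest to Itgax were Galnt6, Tm4sf19 and Slc6a12, at 0.23 to 0.31. Itgb2 lay nearest to Itgad, another alpha chain that pairs with it, to Cybb, a subunit of the phagocyte oxidase, and to Hvcn1, a proton channel, at 0.20 to 0.25. Ptprc lay nearest to Cd53, a leukocyte tetraspanin, Lcp1, a leukocyte actin-bundling protein, and Myo1g, at 0.14 to 0.20, and Selplg to Myo1f, Rbm47 and Wdfy4, at 0.17 to 0.18. For Itga4 the nearest genes were Fgd6, Slc6a6, a taurine transporter, and Ankh, a pyrophosphate transporter, at 0.23 to 0.29. These distances describe the 30 tendons, which share the step between control and repaired groups.

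The partners of the members were followed through 5 lists of genes, given as counts and medians. The counts stand beside the genes called over the whole table, of which 35.8% were higher and 35.6% lower in the 7D 0 mg/kg group, and 32.2% higher and 33.7% lower in the 21D 0 mg/kg group. Of 14 vessel and matrix ligands tested, 5 rose in the 7D 0 mg/kg group and 1 fell, with a median log2 fold change of 0.61, and 6 rose and 2 fell in the 21D 0 mg/kg group, with a median of 0.20. The 5 of 14 higher at 7 days, 35.7%, lay at the share over all genes. Fibronectin, Fn1, had a log2 fold change of 2.78 (adjusted p = 6.90e-06) and P-selectin, Selp, which binds the Selplg product, one of 2.53 (adjusted p = 8.02e-05) in the 7D 0 mg/kg group. Vcam1, the vessel ligand of the Itga4 chain, was at 2.43, and Icam1, a ligand of LFA-1, at 2.17, both past the test. Cd99 was at 0.65, and Jam3, a junction protein, fell by 0.61.

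Of 12 other adhesion receptors, 10 rose in the 7D 0 mg/kg group and 8 in the 21D 0 mg/kg group, with medians of 2.23 and 1.84. Clec7a, a receptor for fungal glucans, was at 4.39 and Itgad at 3.12 in the 7D 0 mg/kg group. The lowest calls were Cd47 at 0.64 and Itgae at 0.57. Of the beta chains that pair with the Itga4 chain, Itgb7 was at 2.26 (adjusted p = 1.59e-05) and Itgb1 at 0.18 (adjusted p = 0.197).

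Of 16 genes of integrin activation, 11 rose in the 7D 0 mg/kg group and 3 fell, with a median of 1.84, and 11 rose and 1 fell in the 21D 0 mg/kg group. Skap1 at 2.84 and Fyb1 at 2.79, adaptors of the T cell path to integrins, were the highest. Fermt3, the kindlin of blood cells that binds integrin beta chains, was at 2.50. The 3 that fell were Sharpin, an integrin inhibitor, at -0.53, Itgb1bp1 at -0.39 and Rap1a at -0.26.

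Of 11 genes of selectin ligand synthesis, 8 rose and 2 fell in the 7D 0 mg/kg group (median 0.99), and 9 rose and 1 fell in the 21D 0 mg/kg group. Fut7, the fucosyltransferase that completes the sugar on the Selplg product, was at 4.13 in the 7D 0 mg/kg group and 2.71 in the 21D 0 mg/kg group. At 0 mg/kg, Fut7 was lower at 21 than at 7 days, with a log2 fold change of -1.43 (adjusted p = 0.0197), where Selplg was at -0.24 (adjusted p = 0.803). The difference between the 2 genes was not tested. St3gal6, a sialyltransferase, was at -3.74 in the 7D 0 mg/kg group (adjusted p = 4.63e-08). B4galt5, a galactosyltransferase, was at 1.80, and C1galt1c1, the chaperone of the enzyme that makes core O-glycans, was called lower at -0.33 (adjusted p = 0.0423). All 9 tested CD45 substrates and partners rose in both groups, with medians of 2.12 and 1.67. Ptprcap, which binds CD45, was the highest at 3.05, and the Src family kinases Fgr at 3.01, Lyn at 1.78, Lck at 2.47 and Fyn at 1.20 were among them. Csk, the kinase that acts on Src family kinases against CD45, was at 1.36.

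**Figure D5:**
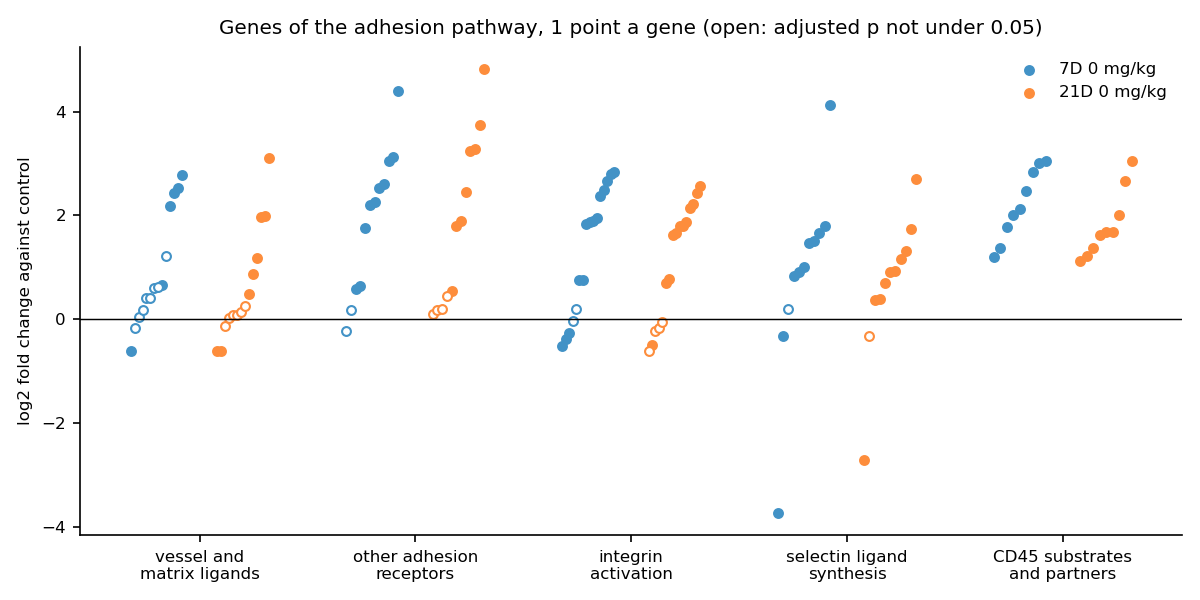
The log2 fold change against control of each gene in the 5 lists, in the 7D and 21D groups at 0 mg/kg, 1 point a gene, with open points where the adjusted p was not under 0.05. All 9 CD45 substrates and partners lie above 0 at both times, while each of the other lists holds 1 or more genes below 0, down to -3.74 for St3gal6.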

How the data were processed

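RNA of 30 plantaris tendons was sequenced as single-end reads, with groups and replicate numbers taken from the sample labels. Per the study's methods the authors trimmed reads with fastp, mapped them by STAR against the rn6 genome and Ensembl genes, and used edgeR for their own comparisons. The authors deposited raw counts of reads per gene, which are the values used here, and whether strand was used in counting is not given in the sources used here. A second deposited table gave the genomic span of each gene, a width in bases; its fold changes and p-values from the authors' own comparisons were not used.

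Counts were fitted with edgeR 4.0.16 (R 4.3.3), with TMM factors (0.599 to 0.788 in control and 0.950 to 1.10 in repaired tendons), 1 mean per group over all tendons, a filter that kept a gene when 1 group or more averaged 3 CPM or above (566 of 13124 removed), and quasi-likelihood F tests adjusted by Benjamini-Hochberg, called at an adjusted p under 0.05. Intervals are 95% intervals. Ratios to Ptprc were compared by exact permutation tests. The fit and the ratio test were tested on simulated data. Alternatives were RLE, library size alone, muscle genes left out before TMM, no filter, only the compared groups, DESeq2 1.42.0, the replicate number as a block, another denominator, a pseudocount of 0.5 for ratios, and leaving out each tendon in turn. Leaving out tendons for the 21D 6 against 0 mg/kg differences and the order of group means was added after seeing the data.

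The members and lists were chosen with earlier results of these data known. Named genes were the members; in each partner list, up to 6 genes in all, the 2 highest and 2 lowest called in 7D 0 mg/kg, those called in the opposite direction, and genes of the lists with a known tie to a member; and the 3 genes nearest to each member. Some genes of the partner lists are not reported here by name. No 2 libraries of a group agreed within counting noise, with a chi-square per gene of at least 29.6. The labels name no batch or date. Total counts ranged from 12405741 to 49909374, and every member had at least 10 counts in every library. The labels say of replicates only that each is a tendon. Per the study's methods, RNA came from the right tendon of several rats in each group. Each tendon is therefore taken as a separate rat, and p-values measure the spread between these tendons.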

Additional observations from a re-analysis of the deposited data

Results flagged for a closer look

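In 21D 6 mg/kg, replicate 5 stood apart from the other 4 tendons for 2 members. Its Itgax level was 118.7 CPM, and its gap to the next tendon was 0.75 of the range of the group. Its Itgb2 level was 418.9 CPM, with a gap of 0.76 of the range. Both exceed the limit of 0.71 that Dixon's test sets for 5 tendons. On log2 CPM, a scale added after seeing the data, the gaps were 0.48 and 0.55 of the range, under that limit. The test was made on 30 combinations of a member and a group of 4 or 5 tendons, and chance alone gives such a gap in about 1 of 20 of them where values are normally distributed. The summed macrophage markers of this tendon were 4688 CPM, the highest of its group, and its skeletal muscle markers were at 4364 CPM, with 3840 to 110174 CPM over the group. Their part in the Itgax and Itgb2 values was not tested.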

How the results depend on the processing

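The members higher against control numbered 5 in every repaired group with RLE normalization, library size alone or muscle genes left out before TMM. The number was also 5 with no filter, with only the compared groups in the fit, and with DESeq2 and its own tests. Leaving out 1 tendon gave 4 to 5 in the 21D 6 mg/kg group and 5 elsewhere. Across doses 0 members were called under every alternative. Between 21D and 7D at 0 mg/kg, DESeq2 called 1 member (Itgal) and fits without 1 tendon 0 to 1; at 6 mg/kg fits without 1 tendon called 0 to 1. Relative to Ptprc, leaving out 1 tendon gave 2 to 3 genes for repaired against control and 1 to 2 for 21D against 7D. The geometric mean of Ptprc and Itgb2 as denominator gave 2 and 1, with Itgb2 itself not tested. With that denominator, Selplg was at -0.29 and Itgal at -0.59 for repaired against control, neither of them called.

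Library size alone turned the log2 fold change of Itga4 against control to 0.36 in the 7D 0 mg/kg group, 0.14 in the 7D 2 mg/kg group and 0.33 in the 21D 2 mg/kg group; it moved the share of higher among called genes from between 48.0% and 51.3% to between 74.1% and 77.9%, and the median log2 fold change of all genes from at most 0.05 to at most 0.64. Between the times it moved the share of higher from 65.2% to 50.9% at 6 mg/kg, from 54.2% to 46.9% at 2 mg/kg and from 53.9% to 42.7% at 0 mg/kg, and with only the compared groups in the fit it was 49.5% at 6 mg/kg. The cause was not tested for any of these.

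Replicate numbers were not used as pairs in the main fit. Deviations of same-numbered tendons of different groups correlated at a mean r of 0.00735 over 76 pairs, 29 of them over 0.1. For differently numbered tendons the mean r was -0.000524 over 307 pairs, 89 of them over 0.1. The difference between these was not tested. With the replicate number as a block, the counts of members were 5 in each group against control, 0 across doses and 0, 0 and 1 between the times; 21D against 7D then gave -0.18 for Itgb2 and -0.19 for Ptprc at 0 mg/kg and 0.0687 for Selplg at 2 mg/kg. Without the filter, Selplg at 2 mg/kg was at 0.0205.

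Leaving out 1 tendon turned the sign of these uncalled values. Against control, Itga4 ran from -0.49 to 0.10 in the 7D 0 mg/kg group, -0.34 to 0.42 in the 7D 6 mg/kg group, -0.53 to 0.38 in the 21D 0 mg/kg group and -0.47 to 0.11 in the 21D 2 mg/kg group. For 21D against 7D at 0 mg/kg, Itgax ran from -0.39 to 0.92, Itgb2 from -0.60 to 0.49, Itga4 from -0.32 to 0.50 and Ptprc from -0.61 to 0.30. At 2 mg/kg, Itgax ran from -0.45 to 0.43, Itgb2 from -0.55 to 0.27, Itga4 from -0.062 to 0.40 and Selplg from -0.28 to 0.18, and at 6 mg/kg Itgax from -1.27 to 0.26 and Itgb2 from -1.31 to 0.0012. Relative to Ptprc, Itgal ran from -0.19 to 0.0478 for repaired against control, and Itgb2 from -0.0389 to 0.14 and Selplg from -0.0669 to 0.0716 for 21D against 7D.

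Over all genes, DESeq2 called 572 across doses at 7 days against 258 by edgeR, 138 against 0 at 21 days, 181 against 49 for the interaction and 1496 against 672 between the times at 0 mg/kg; the interaction count was 28 with the block and 31 with only the compared groups. With 3 control tendons and at most 5 tendons a group, intervals were wide. Depth gave 10 or more counts per member in each library, and the part of counting error in the intervals was not tested.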
